A study of Mus musculus with 117 samples.

Results

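Astrocytes of the mouse spinal cord were compared between 14 d after a crush spinal cord injury (SCI) and the uninjured state, in 8 of the 117 samples of the series. The samples were chosen by their labels: 4 astrocyte libraries at 14 d and 4 astrocyte libraries of uninjured mice, each from 1 mouse. All 8 mice were young adult C57BL/6 females that carried RiboTag, a haemagglutinin-tagged copy of the ribosomal protein Rpl22, switched on by Aldh1l1-CreERT2, a tamoxifen-inducible Cre recombinase under the astrocyte promoter Aldh1l1. Both groups therefore carried the same transgenes and had received tamoxifen. The injured mice had a complete lateral crush of the cord at the tenth thoracic level, and the tissue taken held the lesion together with the cord just rostral and caudal to it. The uninjured mice gave an equivalent length of cord. Tagged ribosomes were pulled down with an antibody and their RNA was sequenced after poly-A selection, which gave the astrocyte library of a mouse. The RNA left behind, from all cells of the block, gave a flow-through library of the same mouse, and these 8 libraries served as the reference for enrichment. Tagging marks cells in which Cre was active, including their progeny, so a change in an astrocyte library reads the share of ribosome-bound RNA, in which fewer tagged cells of a type and less RNA per cell cannot be told apart.

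Astrocytes take up transmitters, buffer potassium and water, supply lactate and sterols to neurons and secrete factors that act on synapses. After tissue damage they become reactive: they raise intermediate filament proteins such as Gfap and vimentin, many of them divide, and within about a fortnight they form a dense border around the lesion core, which is filled with stromal cells and blood-derived leukocytes. The comparison asks which of these functions the RNA bound by astrocyte ribosomes carried at that time.

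The astrocyte libraries held between 95831369 and 123505722 counts in uninjured mice and between 97436392 and 115404209 at 14 d. Log2 CPM, read counts scaled to a common library size by the trimmed mean of M values (TMM), correlated across genes at 0.969 to 0.981 between uninjured libraries, at 0.983 to 0.987 between 14 d libraries and at 0.879 to 0.917 across the groups. In total 8611 of 18205 tested genes, or 47.3%, were differentially expressed genes (DEGs) by edgeR's quasi-likelihood test at a false discovery rate (FDR) under 0.01. Of these, 4453 (24.5% of tested genes) were higher at 14 d and 4158 (22.8%) lower, and the 4 values of each group did not overlap in 10093 genes (55.4%). The rises were larger than the falls: 700 DEGs rose and 27 fell by at least 16-fold, and the median log2 fold change was 1.40 among the DEGs that rose and -0.81 among those that fell. At 14 d the library of mouse 2 stood apart in the values described below, with the highest sum of myeloid markers and the lowest sum of astrocyte markers. Without it 4132 genes were higher and 3767 lower. The 4 libraries of a group came from different mice, and the p-values measure the spread between these.

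Markers of astrocytes were enriched in these libraries before and after injury. All 15 of the listed markers exceeded the flow-through by at least 2-fold at 14 d, as 14.2% of all genes did, with a median log2 ratio of 4.22, against 5.00 in uninjured mice. The 15 together made up 57232 to 67924 CPM in the uninjured astrocyte libraries and 48556 to 58419 CPM at 14 d, and 4566 to 6333 CPM in the 14 d flow-through. The lowest of these sums, 48556 CPM, was that of mouse 2. Within the list the levels shifted apart. Gfap, the intermediate filament protein of astrocytes, measured 15444, 17732, 16402 and 14253 CPM in the uninjured libraries and 30957, 25364, 31008 and 29539 CPM at 14 d. The groups did not overlap, and Gfap was 1.83-fold higher at 14 d (log2 fold change 0.87 ± 0.12 SE). Aldh1l1, the folate enzyme whose promoter drove the Cre, measured 377, 370.2, 437 and 461 CPM in uninjured mice and 225, 183, 232 and 232 CPM at 14 d. It was thus 1.89-fold lower after injury (edgeR FDR = 1.2e-08), with the lowest value in mouse 2. In all, 2 of the 15 markers rose, Gfap and the secreted chaperone Clu, and 11 fell. Neither the water channel Aqp4 (2396, 2740.3, 3241 and 2482 CPM uninjured and 3549.9, 3497, 3237 and 3060.3 CPM at 14 d, log2 fold change 0.30 ± 0.19) nor the transcription factor Sox9 (225, 267, 325 and 320.1 CPM and 277, 187, 235 and 197 CPM, -0.34 ± 0.12) passed the test, and the groups overlapped for both. Sox9 was called lower without uninjured library 1 (log2 fold change -0.44) or 14 d library 1 (-0.46), and with the 14 d libraries of males in place of females (-0.35).

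**Figure D1:**
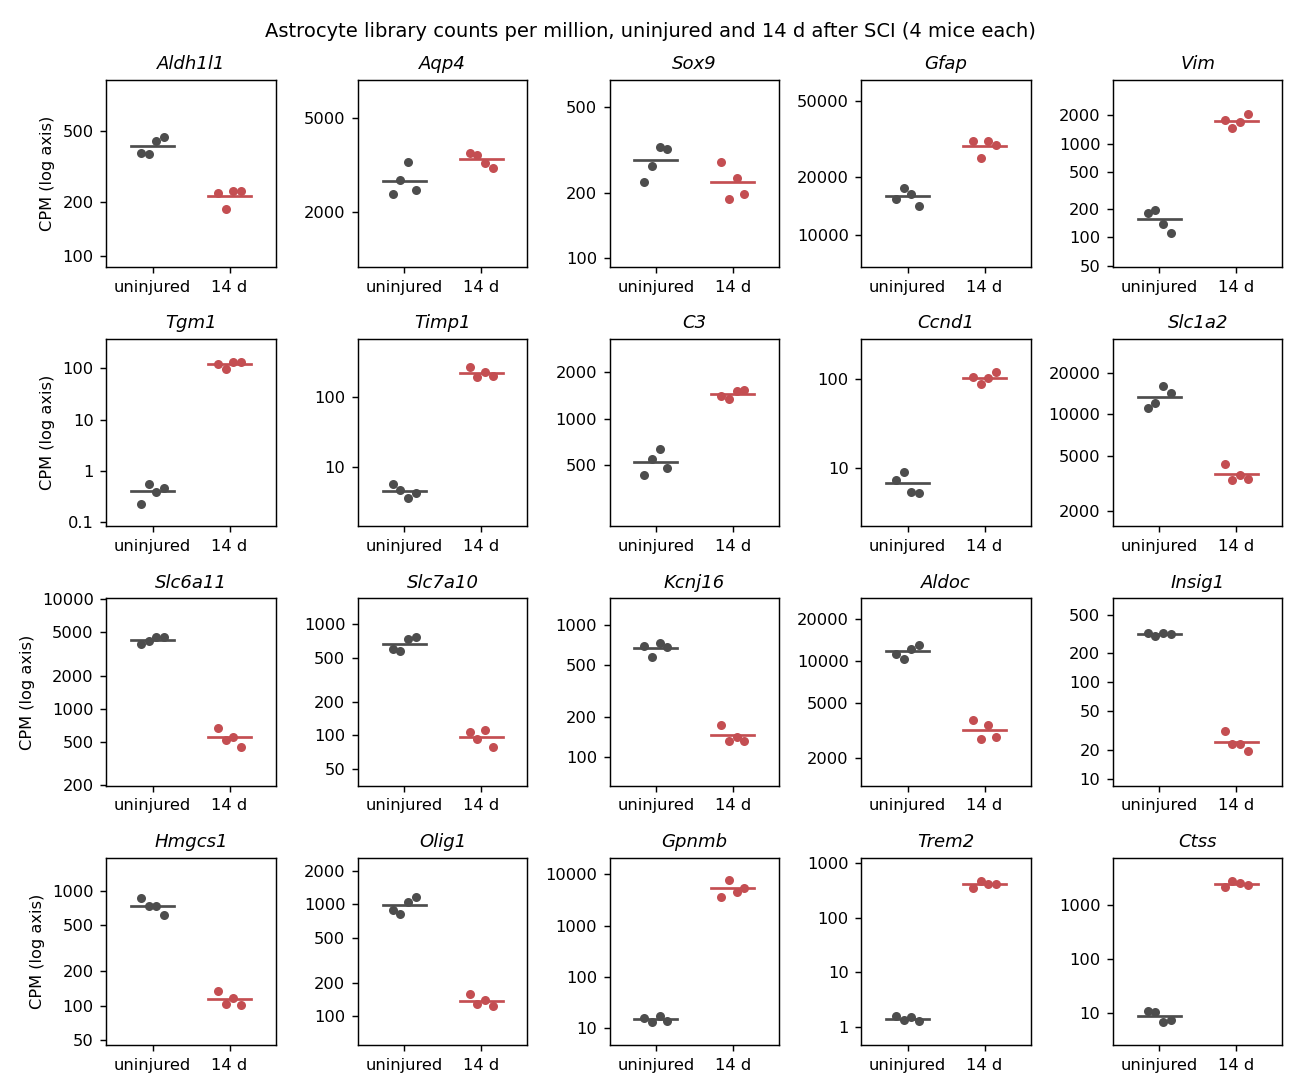
CPM (read counts scaled by TMM, log axis whose range differs between panels) of 20 genes in each astrocyte library; every point is 1 mouse, uninjured (grey) or 14 d after SCI (red), and the line is the mean of 4. The groups overlap for Aqp4 and Sox9 and are apart for the other 18 genes.

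Genes that serve the exchange between astrocytes and neurons fell. Among 20 genes of transmitter uptake and metabolism, 15 fell and 2 rose, with a median log2 fold change of -1.20 against -0.02 over all genes tested. The glutamate transporter Slc1a2 measured 11176, 11969, 16115 and 14164 CPM in uninjured libraries and 4369.5, 3376, 3648 and 3444 CPM at 14 d. Slc6a11, a transporter of the inhibitory transmitter GABA, measured 3907, 4167, 4521 and 4549 CPM and 674, 525, 549 and 448 CPM, and Slc7a10, which exchanges D-serine and other small amino acids, measured 592, 569, 739.5 and 762 CPM and 106, 91.9, 112 and 78.6 CPM. Every 14 d library was below every uninjured one for these 3 transporters, and the falls were 3.60-, 7.80- and 6.86-fold (log2 fold changes -1.85 ± 0.14, -2.96 ± 0.17 and -2.78 ± 0.18). All 3 remained enriched over the flow-through at 14 d, at log2 ratios of 4.22, 4.53 and 4.37. Of the 15 members that fell, 12 were enriched at least 2-fold over the flow-through, as were 25.5% of all genes that fell.

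Genes of potassium, water and gap junction coupling followed the same direction, with 13 of 20 lower, 3 higher and a median log2 fold change of -0.76. The inward rectifier channel Kcnj16 measured 700.4, 578, 732 and 681 CPM in uninjured libraries and 175, 132, 143 and 132 CPM at 14 d. The groups were apart, and the fall was 4.62-fold. The connexins Gja1 and Gjb6, the potassium channel Kcnj10 and the adhesion protein Hepacam were also among the 13. Trpv4, a calcium-permeable cation channel, rose from 0.349, 0.285, 0.399 and 0.254 CPM to 2.86, 5.08, 4.51 and 5.02 CPM, a log2 fold change of 3.75 ± 0.28, and was lower than in the flow-through at 14 d (log2 ratio -0.65). Kcna6, a voltage-gated potassium channel, also rose. Against the 3 members that rose with all libraries, without uninjured library 1, 14 d library 2 or 14 d library 4 in turn only 1 member of the list was called higher.

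Factors that astrocytes direct at synapses, and their transmitter receptors, fell in 21 of 32 cases and rose in 6 (median log2 fold change -0.96). Sparcl1, a secreted protein that promotes excitatory synapses, measured 12869, 15146, 16968 and 16305 CPM in uninjured libraries and 3988, 3488, 3958 and 3612 CPM at 14 d, a fall of 4.07-fold. The GABA-B receptor subunit Gabbr2 fell from 27.4, 42.9, 56.4 and 43.5 CPM to 4.28, 3.44, 3.83 and 4.54 CPM, which was 10.6-fold. The groups were apart for both genes. The 6 members that rose included 3 thrombospondins, matrix proteins that can induce synapses: Thbs1, Thbs2 and Thbs3. Thbs1 measured 5.00, 5.30, 4.45 and 3.94 CPM uninjured and 30.5, 86.6, 44.7 and 39.1 CPM at 14 d, with the highest value in mouse 2. The log2 fold change of Thbs1 was 3.43 ± 0.34, and its 14 d level did not differ from the flow-through by the test (log2 ratio -0.05, edgeR FDR = 0.9).

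Most genes of glycolysis, lactate and glycogen fell, with 22 of 30 lower and 3 higher (median log2 fold change -0.73). Aldoc, the aldolase isoform of astrocytes, fell 3.68-fold, from 11176, 10384, 12265 and 13087 CPM to 3727, 2718, 3447 and 2842 CPM. The muscle-type glycogen phosphorylase Pygm and the glycogen-targeting subunit Ppp1r3g fell most within the list. The 3 genes that rose were the hexokinase Hk2 and the lactate transporters Slc16a1 and Slc16a3. Hk2 measured 2.85, 4.72, 2.98 and 3.12 CPM and 24.7, 34.8, 26.3 and 26.7 CPM, a rise of 8.22-fold, and Slc16a3 measured 1.53, 1.28, 0.571 and 0.774 CPM and 11.9, 17.2, 12.7 and 11.6 CPM, a rise of 12.8-fold. The gene model of Slc16a3 overlaps that of Csnk1d, and reads shared by the pair cannot be told apart. At 14 d Slc16a3 was below its flow-through level (log2 ratio -0.70), while Slc16a1 was enriched at least 2-fold.

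The cholesterol pathway fell as a block. Astrocytes make most of the sterol of the adult central nervous system, and the pathway is switched by Srebf2, which Insig1 holds back when sterol is plentiful. Of 26 tested members 23 were lower at 14 d and the other 3, Hsd17b7, Ebp and Insig2, were not called. The fold changes ran from -3.70 to -0.20 on the log2 scale and their median was -2.30. Insig1 measured 321, 303.8, 322 and 316 CPM in uninjured libraries and 31.3, 23.2, 23.1 and 19.6 CPM at 14 d. Idi1, an isomerase of the early pathway, measured 36.5, 32.1, 40.2 and 33.1 CPM and 3.61, 2.81, 2.92 and 2.40 CPM. Hmgcs1, the synthase that precedes the rate-limiting reductase, measured 868, 739, 743 and 609 CPM and 135, 104, 117 and 102 CPM. The groups were far apart for these 3 genes, with falls of 13.0-, 12.1- and 6.47-fold (log2 fold changes -3.70 ± 0.14, -3.59 ± 0.21 and -2.69 ± 0.15). The list fell in the flow-through too, where 24 of 27 tested members were lower at 14 d (30.6% of all genes were) and the median change was -1.42. For 16 members the change was more negative in the astrocyte libraries by the test of the interaction, as for 13.6% of all genes, and for 1 it was more positive, as for 20.8%. That left the median log2 ratio of astrocyte over flow-through libraries at 0.41 at 14 d, against 0.93 in uninjured mice.

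The promoters of the pathway are shown because its members fell together. RefSeq windows from 250 bases before to 50 bases after a gene's start (build GRCm38.p6, both strands searched) were held for 19 of the 26 members and for 13590 of the 18205 tested genes. The CCAAT box, the letters CCAAT or the reverse complement ATTGG, to which the factor NF-Y binds, was in the windows of 17 of the 19 members (89.5%) and of 42.3% of the 13590 genes, and in 37.4% of all 32851 windows. The core of the sterol regulatory element, TCACNCCAC, was found in 1 of the 19, Hmgcs1, and in 1.47% of the 13590 genes. The windows of the 3 genes named above follow, 5′ to 3′ along the gene, in lower case with the CCAAT box and the sterol element core in capitals. They lie at chr5:28071162-28071461 (Insig1, plus strand), chr13:8885356-8885655 (Idi1, plus strand) and chr13:119690101-119690400 (Hmgcs1, plus strand), and each holds the proximal promoter and the first 50 transcribed bases.
Insig1: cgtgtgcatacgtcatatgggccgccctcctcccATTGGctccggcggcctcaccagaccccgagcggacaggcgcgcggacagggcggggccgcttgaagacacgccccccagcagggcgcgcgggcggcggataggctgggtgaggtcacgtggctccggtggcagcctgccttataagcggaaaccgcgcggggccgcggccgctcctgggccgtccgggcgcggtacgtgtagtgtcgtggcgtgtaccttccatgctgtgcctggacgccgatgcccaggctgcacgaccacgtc
Idi1: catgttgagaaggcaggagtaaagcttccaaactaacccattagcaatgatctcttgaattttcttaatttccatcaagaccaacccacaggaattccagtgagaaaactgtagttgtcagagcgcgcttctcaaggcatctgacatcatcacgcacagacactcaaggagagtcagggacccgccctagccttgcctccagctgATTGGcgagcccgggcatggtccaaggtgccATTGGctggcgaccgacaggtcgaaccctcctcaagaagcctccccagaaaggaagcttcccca
Hmgcs1: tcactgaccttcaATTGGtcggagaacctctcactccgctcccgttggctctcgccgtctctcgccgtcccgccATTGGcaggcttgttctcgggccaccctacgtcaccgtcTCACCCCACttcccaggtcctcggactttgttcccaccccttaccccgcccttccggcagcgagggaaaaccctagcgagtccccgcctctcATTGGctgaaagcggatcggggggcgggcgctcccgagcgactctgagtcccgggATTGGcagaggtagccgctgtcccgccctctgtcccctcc
Insig1 holds 1 CCAAT box, which starts 216 bases before the gene's start. Idi1 holds a pair, 45 and 14 bases before it. Hmgcs1 holds 4, of which 3 start 237, 176 and 45 bases before the start and the last lies just inside the transcript, and its sterol element core starts 137 bases before the start. No motif overlaps another in these 3 windows. Of the 17 members with a CCAAT box 14 fell, and so did both members without it. The match of letters is a description of these windows and was not tied to binding.

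Reactivity genes rose. Of 35 genes of intermediate filaments and reactivity 32 were higher at 14 d, 1 was lower and 2 were not called, with a median log2 fold change of 2.42. Of the 32 that rose, 23 were enriched at least 2-fold over the flow-through, as were 14.8% of all genes that rose. Vim, the intermediate filament protein vimentin, measured 184, 194.3, 138 and 112 CPM uninjured and 1783, 1487, 1688.01 and 2079.6 CPM at 14 d, a rise of 11.2-fold. Tgm1, a transglutaminase that cross-links proteins and is best known from the skin barrier, went from 0.232, 0.551, 0.399 and 0.474 CPM to 122, 97.1, 133 and 134 CPM. Timp1, an inhibitor of matrix metalloproteinases, went from 5.88, 4.78, 3.63 and 4.38 CPM to 264, 187, 225 and 196 CPM. All 3 groups of 14 d values lay above the uninjured ones, and the rises of Tgm1 and Timp1 were 294- and 46.7-fold (log2 fold changes 8.20 ± 0.24 and 5.55 ± 0.19). Timp1 lies within the gene model of the neuronal gene Syn1. At 14 d Tgm1 was 3.53 and Timp1 1.24 above the flow-through on the log2 scale. Lcn2, Serpina3n, Osmr, Steap4, S1pr3, Cd44 and Cd109 were among the other enriched members that rose. The member that fell was S100b, a calcium-binding protein, from 2694, 2330.4, 2105 and 2355 CPM to 1646, 1117, 1581 and 1392 CPM (1.65-fold), and the filament genes Synm and Des were not called.

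**Figure D2:**
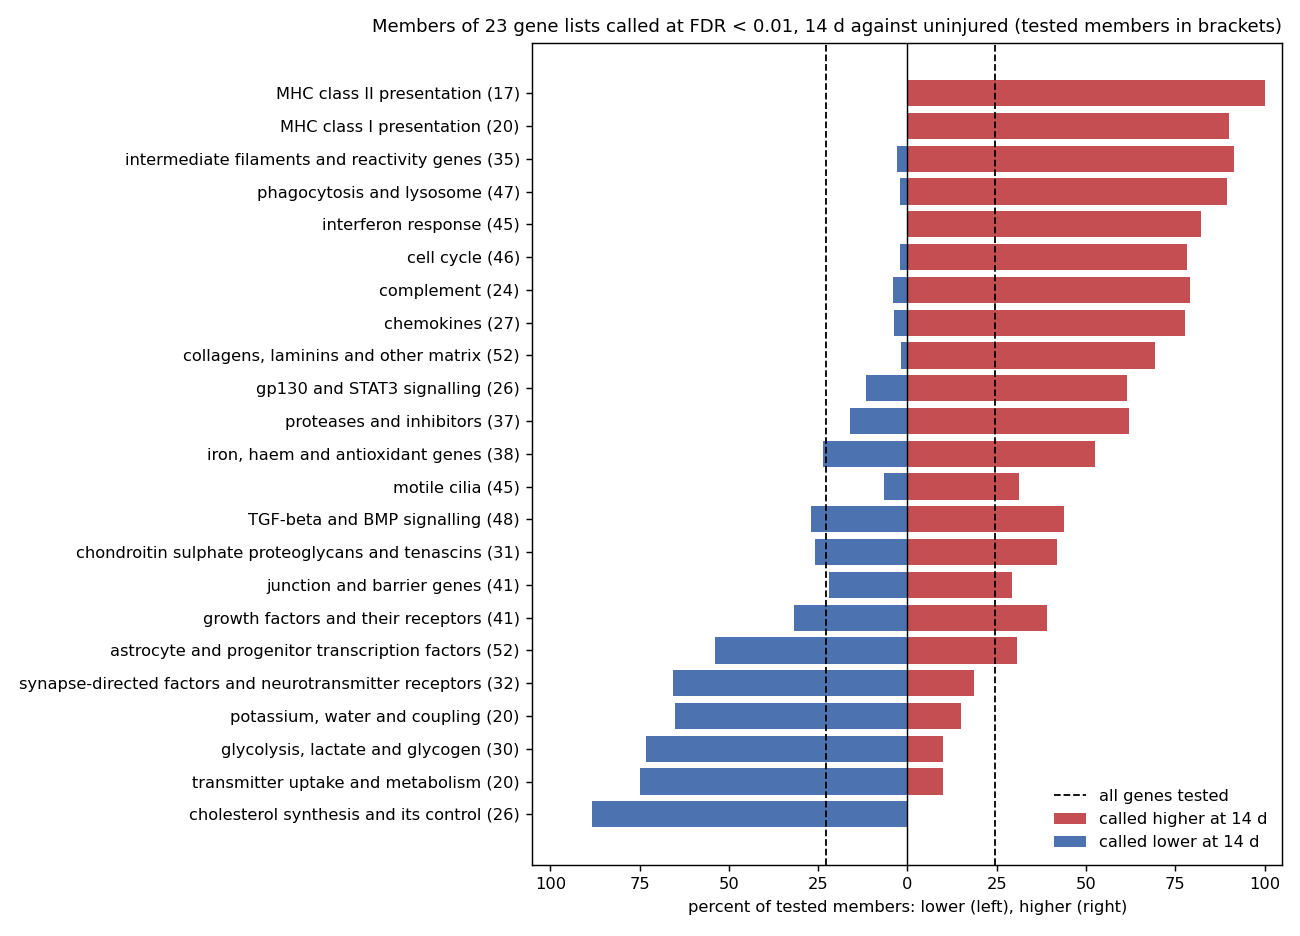
Percent of the tested members of each of 23 gene lists that were higher (right) or lower (left) at 14 d than in uninjured astrocyte libraries at FDR < 0.01, with the number of tested members in brackets; the dashed lines mark all genes tested (24.5% higher, 22.8% lower). Cholesterol genes lie furthest to the left, with 23 of 26 lower, and MHC class II genes furthest to the right, with 17 of 17 higher.

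Markers of leukocytes rose in the astrocyte libraries as well, and these values stand beside every gene group below. All 18 macrophage and pan-myeloid markers were higher at 14 d, with a median log2 fold change of 5.65. On the scaling shared with the flow-through they summed to 67.0 to 127 CPM in uninjured astrocyte libraries and to 12159, 18431, 14461 and 14918 CPM in mice 1 to 4 at 14 d. Lyz2, the lysozyme of macrophages, made up most of that sum, at a mean of 9889 CPM. The 14 d flow-through of the same mice held 7613 to 9594 CPM of these markers, so the astrocyte libraries were not depleted of them. The median log2 ratio of the list, astrocyte over flow-through, was -2.07 in uninjured mice and 0.20 at 14 d. The rise was larger in the astrocyte libraries for 17 of the 18 by the interaction test. Of all genes 20.8% changed more positively there. All 18 were also higher without mouse 2. Markers of other cells moved less or in the other direction. Of 10 microglial markers 7 rose and 1 fell, and the list stayed below the flow-through (median log2 ratio -0.98). Stromal markers rose in 6 of 8 cases, from 327 to 804 CPM in sum to 1325 to 1963 CPM, and were far more abundant in the 14 d flow-through, at 5924 to 6733 CPM. T cell markers rose in 6 of 9 cases but summed to only 15.97 to 21.3 CPM. Oligodendrocyte markers fell in 7 of 11 cases. They summed to 7959 and 8145 CPM in uninjured mice 1 and 2 and to 4208 and 3532 CPM in mice 3 and 4, against 2288 to 2962 CPM at 14 d and 24622 to 27819.8 CPM in the 14 d flow-through. Neuronal markers fell in 9 of 12 cases. Of 10 endothelial markers 1 rose, Lmcd1, and 2 did without uninjured library 2 or 4. Pericyte markers rose in 4 of 8 cases, B cell and plasma cell markers in 2 of 9 and oligodendrocyte precursor markers in 2 of 8, where 2 others fell, and Schwann cell markers fell in 3 of 8. Of all genes tested 24.5% rose and 22.8% fell, so the B cell and precursor counts lay near those shares. Among 10 neutrophil and 6 erythrocyte markers edgeR called 0 at FDR < 0.01, 2 and 1 passed an unadjusted p of 0.05, and DESeq2 called 1 neutrophil marker higher. The part that carried-over RNA or labelled cells of other types had in the results was not tested.

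**Figure D3:**
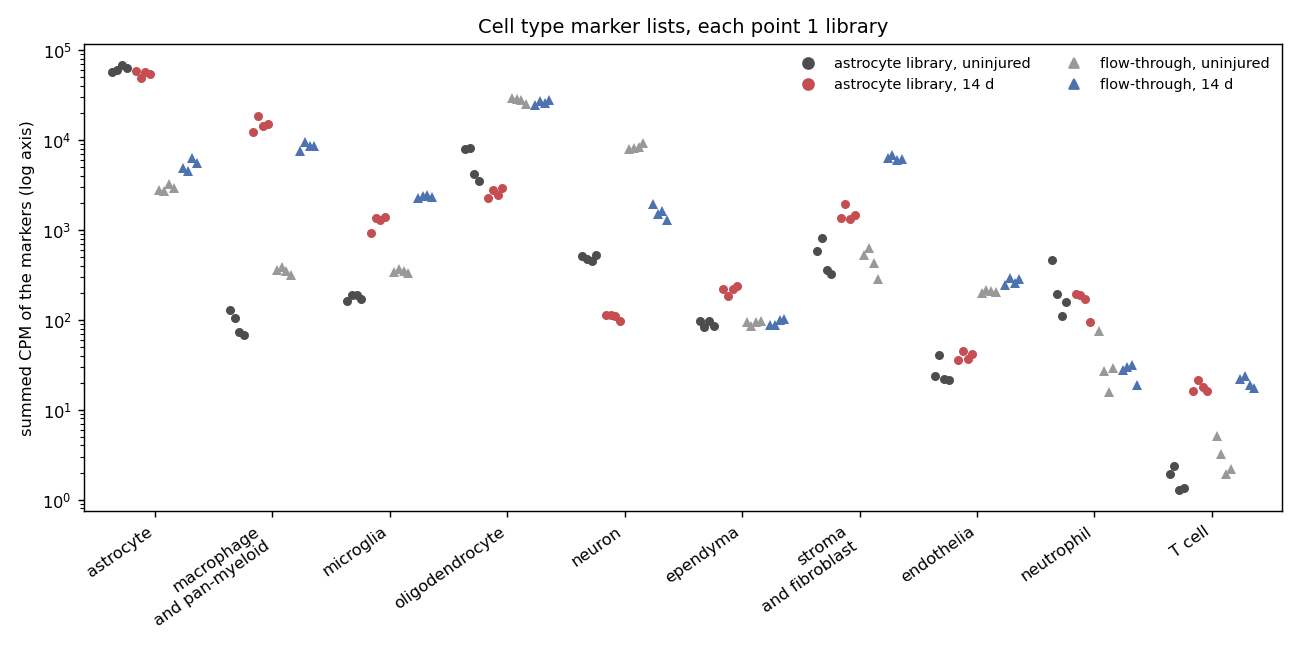
Summed CPM (TMM-scaled over the 16 libraries, log axis) of 10 marker lists; each point is 1 library, astrocyte or flow-through, uninjured or 14 d. Macrophage and pan-myeloid markers rise from 67.0 to 127 CPM to 12159 to 18431 CPM in astrocyte libraries, and astrocyte markers stay between 48556 and 67924 CPM.

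Complement genes rose in 19 of 24 cases and fell in 1, with a median log2 fold change of 3.06. C3, the central component, had the most counts and measured 431, 549, 632 and 479.9 CPM uninjured and 1396, 1332, 1508 and 1525 CPM at 14 d. It was 2.75-fold higher at 14 d and was 2.65 above the flow-through on the log2 scale. C3ar1, the receptor of the C3a fragment, went from 0.620, 0.494, 0.680 and 0.115 CPM to 109.6, 164, 126 and 143 CPM, and the integrin chain Itgax, part of a complement receptor of myeloid cells, from 0.320, 0.304, 0.0363 and 0.0924 CPM to 52.9, 74.9, 61.4 and 49.5 CPM. Both rose from near 0 by 277- and 313-fold, and neither passed the test against the flow-through at 14 d (log2 ratios 0.45 and 0.71). Of the 19 that rose, C3 and properdin, Cfp, were enriched at least 2-fold, as were 14.8% of all genes that rose. Masp1, a protease that starts the lectin pathway, fell from 4.51, 7.47, 7.86 and 7.67 CPM to 0.537, 0.808, 0.811 and 1.00 CPM.

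Antigen presentation genes rose. In the class I list 18 of 20 genes were higher and Erap1 and Calr were not called, with a median log2 fold change of 1.56. B2m, the light chain of all class I molecules, measured 423, 403.02, 388 and 326 CPM uninjured and 1138, 1299.7, 1065 and 1255 CPM at 14 d, a rise of 3.09-fold. Nlrc5, which activates class I transcription, went from 0.659, 0.798, 0.580 and 0.508 CPM to 4.28, 6.63, 5.12 and 5.12 CPM, and the non-classical heavy chain H2-T23 from 12.9, 13.4, 6.58 and 6.70 CPM to 86.5, 107, 90.4 and 86.9 CPM. The groups were apart for all 3, although heavy chain genes are near-identical copies whose counts are uncertain, and B2m overlaps the gene model of Patl2. In the class II list all 17 genes were higher, with a median log2 fold change of 4.55. Class II is the pathway by which antigen-presenting cells show peptides to CD4+ T cells. Ctss, the cathepsin that trims the invariant chain Cd74, rose from 10.8, 10.7, 6.97 and 7.40 CPM to 2149, 2789.9, 2606 and 2330.0 CPM, and the co-stimulator Cd86 rose from 0.155, 0.123, 0.308 and 0.0462 CPM to 9.23, 17.98, 12.9 and 13.4 CPM. The list's median log2 ratio of astrocyte over flow-through went from -1.55 in uninjured mice to 0.49 at 14 d. The change was more positive in the astrocyte libraries for 14 of the 17, as for 20.8% of all genes. The 6 members enriched at least 2-fold at 14 d were H2-Aa, H2-Ab1, H2-Eb1, Cd74, their activator Ciita, and Ctsl. Of all genes that rose, 14.8% were enriched by as much. The myeloid markers rose with this list in the same libraries, from 67.0 to 127 CPM to 12159 to 18431 CPM, and their part in it was not tested. All 17 were also higher without mouse 2.

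Interferon-stimulated genes rose in 37 of 45 cases and the other 8 were not called, with a median log2 fold change of 1.96. Ifitm3, a membrane protein that limits virus entry, had the most counts, at 60.0, 81.5, 48.8 and 46.4 CPM uninjured and 202, 184, 182 and 176 CPM at 14 d, and rose 3.15-fold. Irf8, a transcription factor of myeloid cells, went from 1.28, 1.72, 0.771 and 1.21 CPM to 57.0, 92.5, 70.6 and 68.7 CPM. The chemokine Cxcl9 went from 0.0194, 0.0570, 0.0181 and 0 CPM to 3.09, 2.98, 3.05 and 4.44 CPM. These groups did not overlap either. Of the 37 genes that rose, 9 were enriched at least 2-fold over the flow-through, among them Gbp2, Gbp3, Gbp5, Ifit2 and Rsad2. Among all genes that rose the share was 14.8%. In the flow-through 43 of the 45 were higher at 14 d, as were 26.6% of all genes.

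The interferon-stimulated response element, to which factors of the Irf family bind, was searched on both strands by its core, GAAA, any 2 bases and GAAA again. It was in the windows of 21 of the 35 interferon members that had one (60.0%), of 5 of the 17 class I members (29.4%), of 3.83% of the 13590 tested genes and of 3.44% of all windows. Ifitm3 and B2m are shown as the members of their lists with the most counts, with the core in capitals. Their windows lie at chr7:141010695-141010994 (Ifitm3, minus strand, written along the gene) and chr2:122147437-122147736 (B2m, plus strand).
Ifitm3: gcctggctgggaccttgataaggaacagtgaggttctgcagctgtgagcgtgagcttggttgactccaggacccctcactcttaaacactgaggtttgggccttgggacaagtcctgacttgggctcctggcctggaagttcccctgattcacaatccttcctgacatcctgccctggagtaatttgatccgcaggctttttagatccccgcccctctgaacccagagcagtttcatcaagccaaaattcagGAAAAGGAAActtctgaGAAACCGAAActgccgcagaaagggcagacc
B2m: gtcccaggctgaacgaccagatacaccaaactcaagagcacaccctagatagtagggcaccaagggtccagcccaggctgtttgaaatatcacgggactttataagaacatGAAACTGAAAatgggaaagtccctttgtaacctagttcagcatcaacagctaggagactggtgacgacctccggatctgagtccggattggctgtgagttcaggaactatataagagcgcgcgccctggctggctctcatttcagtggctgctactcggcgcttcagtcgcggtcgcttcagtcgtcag
Ifitm3 holds a pair of cores, which start 2 and 19 bases after the gene's start, and B2m holds 1, which starts 139 bases before it. None overlaps another. Of the 21 interferon members with the core 17 rose, and of the 14 without it 12 rose.

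Chemokine genes had a high median log2 fold change (4.26, with 21 of 27 higher and 1 lower) but low levels. Their sum was 858 to 1067 CPM in uninjured libraries and 865 to 1070.0 CPM at 14 d, within which the member with the most counts fell. That member was Cxcl14, a chemokine enriched in uninjured astrocyte libraries (log2 ratio 4.25), and it measured 668, 647, 771 and 860.2 CPM uninjured and 341, 253, 315 and 316 CPM at 14 d (2.40-fold lower). Ccl8, a monocyte attractant, went from 0.0387, 0.0190, 0 and 0 CPM to 8.78, 4.89, 8.02 and 4.71 CPM. Cxcl2, a neutrophil attractant, had 0 counts in every uninjured library and 0.406, 4.40, 0.838 and 0.421 CPM at 14 d. Against a floor of 3 counts per uninjured library Cxcl2 was at least 50.8-fold higher, and without mouse 2, the highest 14 d library, that bound was 18.6-fold and its fitted log2 fold change went from 10.19 to 8.73. Its call was lost with edgeR's newer quasi-likelihood setting. Cxcl10, an interferon-induced T cell attractant, was the 1 member that both rose and was enriched at least 2-fold over the flow-through. Among all genes that rose, 14.8% were so enriched.

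The list of phagocytosis and lysosome genes rose in 42 of 47 cases and fell in 1 (median log2 fold change 1.88). Its members took 30771 to 35388 CPM in uninjured libraries and 111236 to 144663 CPM at 14 d, most of it Apoe. Apoe, the main lipid carrier of the brain and spinal cord, measured 17142, 16071, 16223 and 19797 CPM uninjured and 56469, 68403, 65706 and 63985 CPM at 14 d, a rise of 3.68-fold, and was 0.61 above the flow-through on the log2 scale at 14 d against 4.01 in uninjured mice. Gpnmb, a membrane glycoprotein of lipid-laden phagocytes, rose from 16.2, 13.2, 17.2 and 14.1 CPM to 3604, 7682, 4600.4 and 5519.5 CPM. Atp6v0d2, a subunit of the lysosomal proton pump, rose from 0.184, 0.171, 0.127 and 0.0693 CPM to 173, 281, 178 and 175 CPM. Mouse 2 was highest for both, and both were enriched over the flow-through at 14 d (log2 ratios 1.52 and 2.16). The list rose in the flow-through too, with 43 of 47 higher, against 26.6% of all genes, and a median change of 2.94. The interaction was more negative in the astrocyte libraries for 20 members, as for 13.6% of all genes, and more positive for 9, as for 20.8%. The member that fell was Megf10, an engulfment receptor by which astrocytes clear synapses, from 68.8, 80.4, 101.5 and 85.5 CPM to 42.7, 38.9, 38.3 and 43.9 CPM (2.05-fold). Mertk, the other receptor known for that role, rose. The CLEAR element TCACGTGA, bound by Tfeb and its relatives, was in the window of 1 of 32 members, Ctsd, and of 1.81% of the 13590 genes. Macrophage markers rose with this list, as given above, and 41 of its members were higher without mouse 2. Both lists hold Cd68, Tyrobp and Trem2.

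Collagen, laminin and other matrix genes rose in 36 of 52 cases and fell in 1, with a median log2 fold change of 1.5. Many of these transcripts were more abundant in the flow-through. Of the 36 that rose, 18 were depleted at least 2-fold against the flow-through at 14 d and 3 were enriched. Among all genes that rose 12.2% were depleted and 14.8% enriched. The change was more negative in the astrocyte libraries for 18 members, as for 13.6% of all genes. Col1a1, a fibrillar collagen of fibroblasts, measured, on the scaling shared with the flow-through, 97.9, 168, 62.6 and 41.3 CPM in uninjured libraries and 446, 636, 465 and 463 CPM at 14 d, against 3096, 3134, 2799.8 and 2926 CPM in the 14 d flow-through. Postn, a matrix protein of fibroblasts, measured 0.911, 0.710, 0.776 and 0.946 CPM, 13.4, 23.6, 11.7 and 14.0 CPM and, in the 14 d flow-through, 78.8, 96.0, 79.3 and 71.6 CPM. The 14 d astrocyte values were thus 5.27- and 18.2-fold above uninjured ones and far below the flow-through of the same mice (log2 ratios -2.57 and -2.37). Stromal markers moved with them, from 327 to 804 CPM in sum to 1325 to 1963 CPM, and their part was not tested. Both lists hold Col1a1, Col1a2, Col3a1, Fbn1 and Postn, so the stromal sum is not a separate measure. The 3 that were enriched were Col4a5, a basement membrane collagen, the elastic fibre protein Fbln5, and the collagen cross-linker Loxl2. Fbln1 fell, from 103, 143, 145 and 126 CPM to 71.1, 86.9, 69.9 and 76.0 CPM.

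Chondroitin sulphate proteoglycans and tenascins did not move as a block: 13 of 31 rose, 8 fell and the median log2 fold change was 0.29. Bcan (brevican), the member with the most counts and a proteoglycan of perineuronal nets, fell 3.55-fold from 1945, 1983, 2175 and 2321 CPM to 631, 562, 628 and 551 CPM. Ptprz1, Cspg5 and the link protein Hapln1 fell with it. Vcan, Tnc, Bgn and Cspg4 were among the 13 that rose. Of these, Tnc, Tnr and the sulphotransferase Chst11 were enriched at least 2-fold over the flow-through, as were 14.8% of all genes that rose. Acan and Ncan were not called. Hapln3 rose from 0.126, 0.0760, 0.127 and 0.0462 CPM to 0.619, 0.400, 0.485 and 0.471 CPM. The call was lost without uninjured library 2 or 4 or 14 d library 1, at log2 fold changes of 2.16 to 2.28, and with males in place of females.

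Proteases and their inhibitors rose in 23 of 37 cases and fell in 6 (median log2 fold change 1.35). Hpse, the heparanase that cuts heparan sulphate, went from 0.794, 0.399, 0.209 and 0.508 CPM to 102, 203, 129 and 137 CPM, and Mmp12, the macrophage elastase, from 0.0775, 0.266, 0.0544 and 0.0462 CPM to 48.7, 73.8, 58.3 and 48.6 CPM. The rises were 300.2- and 502-fold. Hpse was enriched over the flow-through at 14 d (log2 ratio 2.11) and Mmp12 was not called (0.86). The fitted log2 fold change of Mmp12 was 8.97, or 9.87 without uninjured library 2. Timp4, a metalloproteinase inhibitor of astrocytes, fell 2.11-fold, from 464, 432, 476 and 519.8 CPM to 241, 184, 232 and 241 CPM, opposite to Timp1. Cst3, the cysteine protease inhibitor with the most counts, was not called (2794, 2571, 2539 and 2987 CPM and 2321, 2091, 2529.8 and 2229 CPM).

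Among ligands and receptors of injury signalling, those of the gp130 and STAT3 pathway rose in 16 of 26 cases and fell in 3. The cytokine Osm, which acts through Osmr, had at most 2 counts per uninjured library and 3.24, 4.16, 3.46 and 3.52 CPM at 14 d, at least 120.5-fold higher. The interleukin-10 receptor chain Il10ra rose from 1.51, 1.006, 0.807 and 0.924 CPM to 55.0, 76.1, 54.2 and 48.6 CPM. Neither differed from the flow-through at 14 d by the test (log2 ratios -0.24 and 0.18). Osmr, Il6ra, Clcf1 and Ctf1 rose and were enriched at least 2-fold. Cntfr, the receptor of ciliary neurotrophic factor and the member with the most counts, fell 5.05-fold, from 582, 692, 854 and 844 CPM to 147, 139, 151 and 152 CPM. In the TGF-beta and BMP list 21 of 48 rose and 13 fell (median log2 fold change 0.56). The ligand Tgfb1 rose 22.5-fold, from 6.06, 5.95, 4.14 and 4.86 CPM to 90.7, 151, 113 and 117 CPM, but stayed below its flow-through level (log2 ratio -0.64). Receptors of the TGF-beta branch, Tgfbr1 and Tgfbr2, rose, while the BMP receptors Bmpr1a, Bmpr1b and Bmpr2 fell. Itgb8, the integrin that frees TGF-beta from its latent form, fell 2.74-fold, from 63.9, 117, 159.8 and 97.9 CPM to 38.1, 42.0, 36.3 and 43.7 CPM, a call lost with males in place of females (log2 fold change -0.99). Id2, a target of BMP signals, fell from 848, 810.3, 841 and 779 CPM to 534, 461, 472 and 468 CPM.

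Growth factors and their receptors were split, with 16 of 41 higher and 13 lower. Hgf, hepatocyte growth factor, rose from 0.378, 0.427, 1.14 and 0.762 CPM to 4.36, 6.92, 4.98 and 5.45 CPM and was enriched over the flow-through (log2 ratio 3.11), as were Fgf2, Hbegf and the Hgf receptor Met. Pdgfb rose from 0.930, 1.23, 1.80 and 1.14 CPM to 14.6, 13.8, 16.5 and 14.8 CPM but was lower than in the flow-through (log2 ratio -1.13). Ntrk2, the receptor of brain-derived neurotrophic factor, fell 2.14-fold, from 1461, 1680.0, 2018 and 1935 CPM to 864, 767, 836 and 843 CPM, and the neuregulin receptor Erbb4 fell 4.85-fold, from 7.55, 12.4, 15.4 and 13.0 CPM to 3.09, 1.91, 2.70 and 2.28 CPM. Vegfa and Fgfr3 fell as well.

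Transcription factors of astrocytes and their progenitors fell more often than they rose, at 28 and 16 of 52. The 28 included the Notch targets Hes1, Hes5 and Hey1, the Hedgehog pathway genes Ptch1, Gli1, Gli2 and Gli3, and the factors Nfia, Nfib, Nfix, Sox2, Rora, Rorb and Olig2. Olig1 had the most counts, at 891, 822, 1057 and 1167 CPM uninjured and 158, 130.3, 140.2 and 125 CPM at 14 d. It fell 7.12-fold, and it went from above the flow-through in uninjured mice to below it, with log2 ratios of 1.43 and -1.43. Runx1, a factor known from blood cells, rose 68.7-fold, from 0.378, 0.532, 0.589 and 0.162 CPM to 23.98, 34.6, 26.6 and 31.2 CPM. Those that rose and were enriched at least 2-fold over the flow-through were Sox4, Klf6, Cebpd and the AP-1 members Fos and Fosl1.

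Cell cycle genes were higher in 36 of 46 cases and lower in 1 (median log2 fold change 1.43), but their sum remained small, at 517 to 565 CPM uninjured and 813 to 977 CPM at 14 d. Ccnd1 (cyclin D1), which carries cells through the first growth phase, rose 15.3-fold, from 7.38, 9.14, 5.42 and 5.27 CPM to 106, 87.6, 103 and 121 CPM. Cdkn2a, an inhibitor of the cycle linked to senescence, rose from 0.116, 0.0760, 0.0181 and 0.0231 CPM to 1.56, 2.09, 1.54 and 3.03 CPM. Ccnd2, with the most counts, rose 1.58-fold, from 119, 128, 133 and 116 CPM to 219.6, 169.8, 191.5 and 202 CPM. The mitotic genes Mki67, Top2a, Cdk1, Ccnb1 and Aurkb rose with them. Of the 36, only Ccnd2 and Rrm2 were enriched at least 2-fold over the flow-through, against 14.8% of all genes that rose. In the flow-through 38 members were higher at 14 d, as were 26.6% of all genes. Cdkn1b (p27), which holds cells out of the cycle, was the gene that fell, from 67.8, 64.4, 66.6 and 65.6 CPM to 43.2, 38.5, 37.9 and 38.9 CPM.

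Junction and barrier genes moved in both directions, with 12 of 41 higher, 9 lower and 20 not called. These counts lay near the shares of all genes tested, of which 24.5% rose and 22.8% fell. Cdsn, corneodesmosin, an adhesion protein of the skin barrier, rose 90.2-fold, from 0.494, 0.494, 0.444 and 0.289 CPM to 39.6, 28.5, 42.6 and 46.3 CPM, and was 3.07 above the flow-through on the log2 scale. It rose in the same libraries as Tgm1. The enriched genes that rose were Cdsn, Tjp3, Dsc2 and Epcam, and the enriched ones that fell were Cldn10, Tjp1, Jam2 and Cdh2. Desmoplakin, Dsp, was barely measured (0.243, 0.485, 0.212 and 0.190 CPM at 14 d), and its call was lost without uninjured library 1, 3 or 4 or 14 d library 2 (log2 fold changes 3.22 to 3.26). Without uninjured library 2 that value was 7.76, against 3.62 with all libraries. Cgn (cingulin), a tight junction protein, fell from 0.445, 1.22, 0.879 and 0.497 CPM to 0.203, 0.0680, 0.0793 and 0.0200 CPM, and Ctnnb1 (beta-catenin), with the most counts, was not called. The median of the list was 0.06, or -0.03 and -0.07 without uninjured library 3 and 4 and -0.05 and -0.01 without 14 d library 1 and 2.

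Motile cilia genes were higher in 14 of 45 cases and lower in 3, and 28 were not called. The largest rises were at very low levels: Spag6l went from 0, 0.0949, 0 and 0.0462 CPM to 0.446, 0.578, 0.723 and 0.501 CPM and Dnaaf3 from 0.610, 0.446, 0.236 and 0.843 CPM to 4.78, 3.75, 4.45 and 3.38 CPM. Tppp3, with the most counts, rose from 140.0, 139, 93.6 and 81.2 CPM to 209, 159, 206 and 238 CPM, a call lost without uninjured library 3 or 4 or 14 d library 4 (log2 fold changes 0.71 to 0.76, against 0.84 with all libraries). Dnaic1, a dynein chain, fell 2.66-fold, from 35.6, 32.0, 32.1 and 32.8 CPM to 14.2, 10.3, 13.6 and 11.8 CPM, and was enriched in astrocyte libraries (log2 ratio 1.83). The gene model of Dnaic1 overlaps that of Enho, so its fall and enrichment may include reads of Enho. The change was more positive in the astrocyte libraries for 17 members, as for 20.8% of all genes, and more negative for 2, as for 13.6%. The marker list of ependymal cells, which bear such cilia, rose with it, with 7 of 10 higher and summed levels of 83.4 to 97.8 CPM uninjured and 185 to 240.3 CPM at 14 d. Both lists hold Foxj1, Rsph1, Cfap126 and Odf3b, so the rises of Foxj1, Rsph1 and Cfap126 are counted in each.

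Iron, haem and antioxidant genes rose in 20 of 38 cases and fell in 9. Ftl1, the ferritin light chain, rose 22.6-fold, from 46.1, 44.5, 43.3 and 45.4 CPM to 819.9, 1077, 1058 and 1097 CPM, and the iron exporter Slc40a1 (ferroportin) rose 14.5-fold, from 1.57, 1.29, 1.15 and 1.39 CPM to 15.9, 23.5, 15.8 and 23.1 CPM. The transferrin receptor Tfrc, which imports iron, fell 6.17-fold, from 100.0, 94.0, 122 and 99.0 CPM to 20.1, 21.6, 12.2 and 13.4 CPM. Haem oxygenase Hmox1 and ferritin heavy chain Fth1 were also among the genes that rose. Macrophage markers rose in the same libraries, from 67.0 to 127 CPM to 12159 to 18431 CPM, with the lowest 14 d sum in mouse 1, where Ftl1 was lowest too, and their part in the iron genes was not tested. Ftl1 has many near-identical copies, and its counts are uncertain. It was below its flow-through level at 14 d (log2 ratio -1.30). Metallothionein Mt1, with the most counts, rose 2.24-fold, from 3305, 2944, 3049 and 3475 CPM to 7735, 5535, 7482 and 7834 CPM, and was enriched (2.03).

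Across all protein-coding genes with at least 10 counts in every library, the 10 largest rises were those of Ms4a7, Gpnmb, Ccn5, Clec7a, Hpse, Tgm1, Cd300a, Trem2, C3ar1 and Ctss, at log2 fold changes of 8.52 to 8.11. Ms4a7 and Trem2 are in the list of macrophage and pan-myeloid markers, and Clec7a and Cd300a are receptors known from myeloid cells. Trem2, a lipid receptor of microglia and macrophages, measured 1.58, 1.38, 1.54 and 1.28 CPM uninjured and 343, 459.7, 415 and 414 CPM at 14 d and was lower than in the flow-through (log2 ratio -0.56). Clec7a, a receptor of fungal glucans, measured 0.775, 0.627, 0.354 and 0.624 CPM and 159, 249, 168 and 169.8 CPM, with a log2 ratio of 0.69. Ccn5, a matricellular protein, measured 1.28, 1.68, 0.628 and 0.486 CPM and 327, 291, 409 and 428 CPM on the scaling shared with the flow-through, which held 59.9, 34.5, 62.9 and 64.3 CPM at 14 d. Ccn5 and Tgm1 thus stood out among the 10 by their enrichment at 14 d, at log2 ratios of 2.72 and 3.53, followed by Hpse, Gpnmb and Cd300a at 2.11, 1.52 and 1.45. Without mouse 2 the log2 fold change of Gpnmb was 8.24, that of Trem2 8.08 and that of Clec7a 8.12.

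A further 170 genes that were called higher had at most 3 counts in every uninjured library. By level at 14 d the first 5 of the protein-coding ones were Mcoln3, a lysosomal calcium channel, at 24.6, 46.2, 32.0 and 25.3 CPM, Serpina3i, a protease inhibitor, at 7.62, 7.50, 8.29 and 7.02 CPM, Ms4a14 at 3.70, 6.25, 3.83 and 3.98 CPM, Osm, described above, and the chemokine Ccl4 at 1.77, 4.22, 2.88 and 2.65 CPM. Against a floor of 3 counts per uninjured library they were at least 1072-, 255-, 149-, 120.5- and 96.6-fold higher. Mcoln3 and Serpina3i were enriched over the flow-through (log2 ratios 3.07 and 2.47) and Ccl4 was depleted (-2.19). The gene model of Mcoln3 overlaps Wdr63, that of Serpina3i a predicted gene, and that of Ccl4 its neighbour Ccl3.

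The 10 largest falls by the same rule were those of Kirrel2, Lgr6, Cdr1, Acvr1c, Unc13a, Cyp4f15, Slc17a7, Nrarp, Flrt1 and Atp1a4, from -5.15 to -3.75 on the log2 scale. Kirrel2, an immunoglobulin-family adhesion protein, measured 13.6, 16.3, 23.2 and 25.5 CPM uninjured and 0.791, 0.451, 0.582 and 0.391 CPM at 14 d, a fall of 35.5-fold. Lgr6, a receptor for R-spondins in the Wnt pathway, measured 21.7, 26.8, 37.9 and 39.6 CPM and 1.00, 1.08, 1.78 and 1.81 CPM. Acvr1c, a type I receptor for activins and nodal, measured 26.3, 25.9, 34.8 and 27.3 CPM and 2.50, 1.97, 1.26 and 0.982 CPM. The groups were apart for these 3 genes, which were enriched over the flow-through at both times. Nrarp, a target and brake of Notch signalling, fell 13.6-fold, from 41.6, 38.5, 52.4 and 49.4 CPM to 4.64, 3.17, 3.09 and 2.51 CPM. The rank of others rests on wide uninjured values. Unc13a, a synaptic vesicle protein, measured 59.0, 32.1, 150.3 and 234 CPM in uninjured libraries, and Atp1a4, a sodium pump chain of sperm, measured 1.30, 11.7, 1.74 and 7.73 CPM, while their 14 d values were 11.6, 8.78, 7.02 and 5.23 CPM and 0.446, 0.587, 0.247 and 0.381 CPM. The log2 fold change of Atp1a4 was -3.11 without uninjured library 2. Cdr1 measured 29.0, 38.5, 91.0 and 80.5 CPM and 4.54, 1.43, 4.59 and 1.77 CPM, and reads from its antisense partner cannot be told apart from its own without strand. Slc17a7, a vesicular glutamate transporter of neurons, was below its flow-through level at both times, and it fell from 5.21, 5.78, 4.96 and 4.93 CPM to 0.122, 0.417, 0.608 and 0.361 CPM beside neuronal markers that summed to 450.2 to 531 CPM uninjured and 96.8 to 113 CPM at 14 d.

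At 14 d, 2645 of 18591 genes (14.2%) exceeded the flow-through by at least 2-fold and 3180 (17.1%) were depleted by as much. Of the 4433 genes that rose in astrocytes and were tested here, 657 (14.8%) were enriched at least 2-fold and 540 (12.2%) were depleted. Of the 4158 that fell, 1059 (25.5%) were enriched and 713 (17.1%) depleted. The share enriched was thus larger among genes that fell than among genes that rose, as a description without a test. In the flow-through itself 4945 genes (26.6%) were higher and 5686 (30.6%) lower at 14 d. The change differed between astrocyte and flow-through libraries for 6391 genes: for 3858 (20.8%) it was more positive in the astrocyte libraries and for 2533 (13.6%) more negative. This split depended on scaling, since TMM put the median difference at 0.13 and relative log expression at 0.00, with 3182 genes more positive and 3139 more negative under the latter. The genes named next differed by far more than that shift and passed under both scalings.

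**Figure D4:**
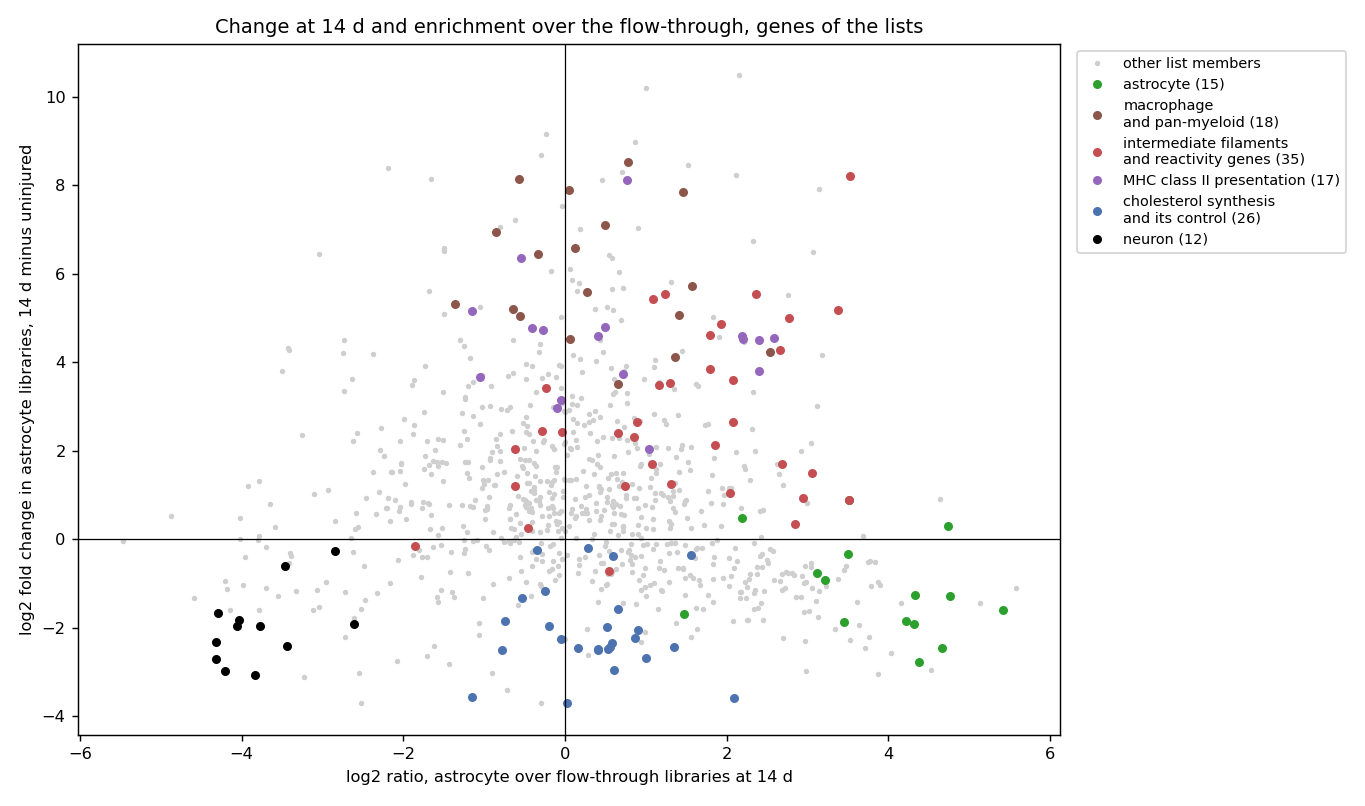
Log2 fold change in astrocyte libraries, 14 d minus uninjured (vertical), against the log2 ratio of astrocyte over flow-through libraries at 14 d (horizontal); each point is 1 gene of the lists, and 6 lists are coloured. Astrocyte markers lie to the right and mostly below 0, myeloid markers high around a ratio of 0, reactivity genes high and mostly to the right, and neuronal markers at the lower left.

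Several of the largest differences in change belonged to genes that passed from one side of the flow-through level to the other. All CPM here and in the next paragraph are on the scaling shared with the flow-through. Nppc, the precursor of C-type natriuretic peptide, measured 1.35, 0.885, 0.628 and 0.448 CPM in uninjured astrocyte libraries and 11.7, 6.77, 11.8 and 17.2 CPM at 14 d, whereas the flow-through fell from 15.04, 14.1, 14.5 and 12.5 CPM to 5.25, 2.80, 3.19 and 3.90 CPM. Chgb (chromogranin B), a protein of secretory granules, rose from 46.2, 43.1, 41.3 and 41.1 CPM to 437, 305, 643 and 443 CPM in astrocyte libraries while it fell from 353, 334, 374 and 396 CPM to 116, 79.0, 131 and 70.1 CPM in the flow-through. Both genes thus went from below the flow-through level (log2 ratios -4.08 and -3.08) to above it (1.65 and 2.21). The differences in log2 change were 5.73 ± 0.43 and 5.29 ± 0.30, followed on the positive side by Ccn5 (5.72), the transcriptional coactivator Cited1 (4.85) and the ubiquitin ligase Rnf128 (4.83).

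In the other direction, Gdf10, a growth factor of the TGF-beta family, measured 43.7, 42.6, 46.1 and 42.4 CPM in uninjured astrocyte libraries and 12.9, 13.0, 12.7 and 13.7 CPM at 14 d, whereas the flow-through rose from 5.85, 5.35, 5.11 and 5.41 CPM to 67.0, 38.6, 60.4 and 61.5 CPM. Heyl, a Notch target, measured 92.0, 95.9, 116 and 112 CPM and 11.9, 8.93, 8.88 and 7.59 CPM in astrocyte libraries and 7.89, 8.55, 9.04 and 8.65 CPM and 21.8, 22.6, 21.7 and 21.6 CPM in the flow-through. Egfr, the receptor of epidermal growth factor, measured 40.9, 46.9, 53.0 and 48.2 CPM and 23.3, 21.8, 25.4 and 23.8 CPM, and 3.62, 3.15, 2.37 and 2.39 CPM and 25.5, 21.8, 34.6 and 34.1 CPM in the flow-through. For these 3 genes the astrocyte libraries fell while the flow-through of the same mice rose, with differences in log2 change of -5.13 ± 0.18, -4.84 ± 0.16 and -4.33 ± 0.22. The citrate transporter Slc13a5 (-4.43) also fell in the astrocyte libraries and rose in the flow-through. Apoc1, a lipoprotein component next to Apoe, rose in both, 2.99-fold in astrocyte libraries but far more in the flow-through, so that its difference was -4.81.

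Set against the sampled times on either side, few genes were particular to 14 d. A gene that was higher at 14 d than in uninjured mice, at 5 d and at 28 d, each at FDR < 0.01, was called a peak, and 30 genes (0.165%) met this, while 28 (0.154%) met the reverse and were called dips. Mfge8, a bridge between dying cells and phagocytes, measured 129 ± 4.67 CPM (mean ± SD) in uninjured mice, 217 ± 13.7 at 5 d, 777 ± 160.1 at 14 d and 293 ± 119 at 28 d. Fbxo32 (atrogin-1), a ubiquitin ligase subunit known from muscle wasting, measured 48.4 ± 4.01, 21.1 ± 2.52, 93.4 ± 21.3 and 43.9 ± 3.18 CPM. The peptide receptor Vipr1 measured 0.127 ± 0.0802, 1.35 ± 0.152, 7.26 ± 2.14 and 2.50 ± 0.262 CPM. The 14 d mean was the highest of the 7 groups for all 3, and Ecel1 and Acpp completed the first 5. Among dips, Ptbp2, a splicing regulator, measured 61.8 ± 7.86, 25.4 ± 1.87, 9.76 ± 1.11 and 15.3 ± 4.10 CPM, and Hsp90aa1, a heat-inducible chaperone, 197 ± 10.54, 238 ± 24.9, 131 ± 21.9 and 189 ± 20.8 CPM. Myorg, a glycosidase of astrocytes, P4ha1, a prolyl hydroxylase for collagen, and Dnph1 were the others. The named peaks and dips are protein-coding genes with at least 10 counts in every library and a mean of at least 5 CPM within the 14 d group (peaks) or the uninjured group (dips). Most of these calls rest on single libraries. Fbxo32 and P4ha1 passed whichever library of the uninjured, 5 d, 14 d or 28 d groups was left out. Without mouse 2 at 14 d, 9 genes peaked and 8 dipped, and of the 10 named genes Fbxo32 and P4ha1 passed. Without 28 d library 3 or 1, 3 and 4 of the 10 passed, and the counts were 18 peaks and 15 dips and 16 peaks and 19 dips. Of the 10, 6 passed without 14 d library 3, 7 without 14 d library 4 or 28 d library 2, 8 without 28 d library 4, and 9 without uninjured library 3 or 14 d library 1.

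**Figure D5:**
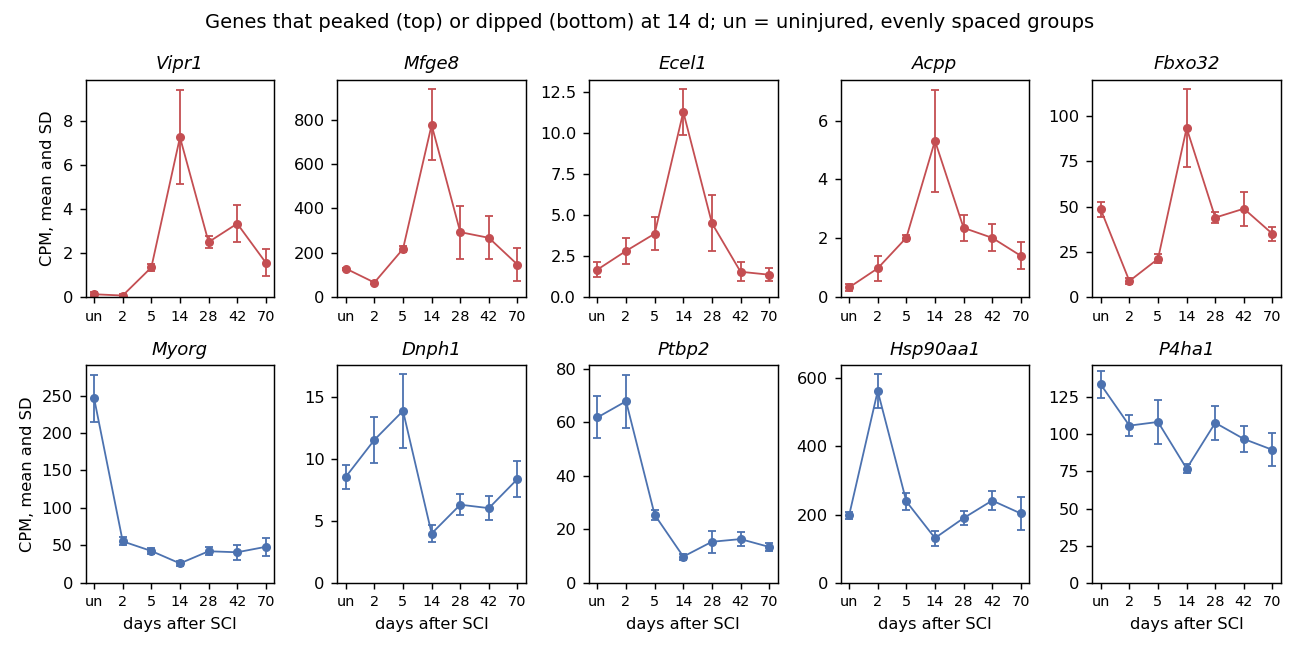
Mean CPM (TMM-scaled, error bars SD) of 5 genes that peaked (top) and 5 that dipped (bottom) at 14 d, in astrocyte libraries of uninjured mice (un) and of 6 times from 2 d to 70 d after SCI, n = 4 or 5 per group, with groups evenly spaced. Mfge8 stands at 777 CPM at 14 d and at 293 CPM or less at the other times.

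Astrocyte libraries of 4 male mice at 14 d were held beside the female ones. Of the 122 genes named by rule, edgeR called 0 different between the sexes at FDR < 0.01, and 12 passed an unadjusted p of 0.05. Over all 16975 genes tested between the sexes 6 differed at that FDR, so the count of 0 lay near that share. Cxcl9 came nearest, at a mean of 9.59 CPM in males and 3.34 CPM in females (log2 difference 1.52, edgeR FDR = 0.050). With the males in place of the females, 4553 genes were higher and 3783 lower than in the uninjured females. No uninjured males of this line were analysed here, so sex and injury cannot be told apart in that comparison.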

How the data were processed

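RNA from tagged astrocyte ribosomes and the flow-through RNA of the same mice were poly-A selected and sequenced. The authors trimmed reads with Trimmomatic, joined the lanes of a library, aligned to mm10 with HISAT2 and counted reads per gene with featureCounts, and deposited raw counts for 27179 gene identifiers per library. Alignment and counting used default parameters, and by default featureCounts counts reads without regard to strand. Gene symbols came from RefSeq, which named 25275 of the identifiers and matched 962 of 964 list entries. Of the 122 named genes 48 overlap another gene model, and in counts without strand reads of overlapping genes cannot be fully told apart.

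Counts were analysed with edgeR 4.0.16 in R 4.3.3 (filterByExpr, TMM scaling, robust quasi-likelihood test in its legacy setting, Benjamini-Hochberg adjustment over all genes tested) and a gene was called at FDR < 0.01. The 29 female astrocyte libraries of 7 groups (uninjured and 6 times after SCI) shared 1 fit, which gave the comparison of 14 d with uninjured and, with 5 d and 28 d, the peaks and dips. The 16 libraries of 8 mice (astrocyte and flow-through, uninjured and 14 d) shared another, which gave the ratios to the flow-through, the interaction, the flow-through levels and the sums of markers; CPM of single genes in astrocyte libraries follow the first fit unless the shared scaling is named. Fold changes are those of the edgeR fit, on the log2 scale, and log2 CPM was computed with a prior count of 2. Both libraries of a number came from 1 mouse, and their deviations from the group means correlated at 0.178 to 0.399 at 14 d and 0.350 to 0.535 in uninjured mice, so they were paired by mouse in an alternative fit.

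The 23 function lists and 15 cell type lists, and the samples compared, were chosen with earlier results of these data known. Genes were named by rule: Aldh1l1, Gfap, Vim, Aqp4, Slc1a2 and Sox9 always; in each function list the pair of called members with the largest change, the called member of the rarer direction with the largest change and the member with the most counts; the 10 largest rises and falls with at least 10 counts in every library, 5 CPM in 1 group and groups apart; the 5 highest genes with at most 3 counts in each uninjured library; and the 5 strongest peaks, dips, positive and negative interactions among protein-coding genes with those minima of counts and CPM. Other members were named after their values were seen. Promoter windows are RefSeq sequences of build GRCm38.p6. The alternatives were DESeq2 1.42.0 and its scaling, other filters, edgeR's newer setting, FDR < 0.05, each library or mouse left out, only the 8 libraries compared, blocks by replicate number or mouse, and male mice. The scripts were tested on simulated data with 200 changed genes. In the fit of 29 libraries each library is 1 mouse, so its p-values measure the spread between mice. The fit of 16 libraries holds both libraries of each of 8 mice, and its main p-values leave out that pairing. Other samples of the series were not used here, and a few members of the lists are counted but not reported by name.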

Additional observations from a re-analysis of the deposited data

Results flagged for a closer look

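Among 234 sets of 4 values, those of named genes in each group, 20 held 1 library that stood apart from the other 3 by Dixon's test, where chance gives about 1 in 20. Of the 20 values 8 belonged to the 14 d library of mouse 2, 5 as the highest and 3 as the lowest. In that library Cxcl2 measured 4.40 CPM (others 0.406 to 0.838), Col1a1 570.1 (399 to 412.6), Atp6v0d2 281 (173 to 178), Clec7a 249 (159 to 169.8) and Ms4a14 6.25 CPM (3.70 to 3.98), all above the other 14 d libraries. Aldh1l1 at 183 CPM (others 225 to 232), Timp4 at 184 (232 to 241) and Mt1 at 5535 CPM (7482 to 7834) were below them. Its summed myeloid markers were the highest of the 14 d libraries, at 18431 CPM, and its summed astrocyte markers the lowest, at 48556 CPM, and their part in these values was not tested. Elsewhere at 14 d, Id2 in library 1 was highest at 534 CPM (461 to 472), Ftl1 in library 1 lowest at 819.9 CPM (1058 to 1097), and Cxcl9 in library 4 highest at 4.44 CPM (2.98 to 3.09).

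In the uninjured libraries Hk2 was highest in library 2 at 4.72 CPM (2.85 to 3.12), Masp1 lowest in library 1 at 4.51 CPM (7.47 to 7.86), Acvr1c highest in library 3 at 34.8 CPM (25.9 to 27.3), Cd300a lowest in library 3 at 0.254 CPM (0.543 to 0.598) and Mmp12 highest in library 2 at 0.266 CPM (0.0462 to 0.0775). The other 4 were genes at 0 in 3 libraries: Osm and Mcoln3, each at 0.0231 CPM in library 4, Dsp at 0.0855 CPM in library 2 and Ccl4 at 0.0291 CPM in library 1.

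The change from uninjured to 14 d differed between astrocyte and flow-through libraries, by the interaction term, for 10 named genes. The differences in log2 change were 5.73 for Nppc, 5.72 for Ccn5, 5.29 for Chgb, 4.85 for Cited1 and 4.83 for Rnf128, and -5.13 for Gdf10, -4.84 for Heyl, -4.81 for Apoc1, -4.43 for Slc13a5 and -4.33 for Egfr. All 10 passed under each alternative tried.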

How the results depend on the processing

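The count of 8611 genes changed at 14 d ranged from 7783 to 10358 over the alternatives, the former with the replicate number as a block (4099 higher, 3684 lower) and the latter at FDR < 0.05 (5259 and 5099), with 9081 by DESeq2 and 7827 to 8258 with 1 library left out. Same-numbered uninjured and 14 d libraries came from different mice, and their deviations correlated at 0.0581, 0.290, -0.0395 and -0.0852. The value of 0.290 lies within the range of astrocyte and flow-through libraries of 1 mouse at 14 d. These correlations therefore do not decide whether a shared number has a meaning across the groups. The replicate block took the calls of Tppp3 (log2 fold change 0.90) and Unc13a (-3.46). The mouse block, which does pair libraries, moved no count by over 1.5 times, and the named interactions all passed under it. With it 7377 genes differed in change between astrocyte and flow-through libraries (4374 more positive, 3003 more negative), against 6391 without it. Calls of single named genes against the flow-through were not repeated with the mouse block.

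The counts of peaks and dips moved most, and the cause was not tested. Against 58 in all (30 peaks, 28 dips), 97 were called with edgeR's newer setting (66 peaks), 104 by DESeq2 (63 peaks, 41 dips), 198 at FDR < 0.05 (100 peaks, 98 dips) and 107 with the replicate block on 4 of the groups (64 peaks, 43 dips). With 1 library left out they ranged from 17 to 65 in all, 9 to 37 peaks and 8 to 28 dips.

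Of the named genes' values, 2052 kept their direction and call, 16 lost a call, 5 gained one and 1 turned, Ctnnb1 with males (0.028). Cxcl2 lost its call with edgeR's newer setting (10.24), Dsp with only the 8 libraries compared (3.66), and Itgb8 (-0.99) and Hapln3 (2.09) with males; Sox9 (-0.34) and Cst3 (-0.25) passed at FDR < 0.05. Of list counts 1267 stayed and 25 moved, and of list medians 598 stayed, 40 moved and 8 turned. Those that turned were near 0: the B cell median of 0.03 was -0.40 with males and ranged from -0.22 to 0.44 with 1 library left out, and that of junction genes, 0.06, ranged from -0.066 to 0.28. With 4 mice a group, the low-level genes Dsp and Hapln3 had calls that rested on single libraries.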

Other observations

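Transcripts of 2 blood cell types lay above the flow-through in astrocyte libraries of both groups. The 10 neutrophil markers summed to 458, 191.9, 110.2 and 159 CPM in uninjured astrocyte libraries and to 192.6, 189, 169 and 95.3 CPM at 14 d, against 15.7 to 75.9 CPM and 18.9 to 31.7 CPM in the matching flow-through. Their median log2 ratio of astrocyte over flow-through was 2.69 in uninjured mice and 2.75 at 14 d. All 10 were enriched at least 2-fold at 14 d, as were 14.2% of all genes. The 6 erythrocyte markers behaved alike, at 34.3 to 122 CPM and 25.4 to 64.5 CPM in astrocyte libraries and 6.42 to 28.7 CPM and 7.09 to 9.41 CPM in the flow-through, with median log2 ratios of 2.23 and 2.43 and 4 of 6 enriched at 14 d. The groups overlapped for both sums.

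Of the 30 peaks at 14 d, 5 were members of the function lists, and so was 1 of the 28 dips. Apoe exceeded 5 d by 0.94 and 28 d by 0.59 on the log2 scale. The other 4 were Nfe2l2, a transcription factor for antioxidant genes, Tfeb, one for lysosomal genes, the collagen chain Col9a3, and Mfge8. The dip was Tpi1, an enzyme of glycolysis, with log2 differences of -0.56 from 5 d and -0.26 from 28 d. These genes were chosen after their values were seen.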
